A study of Mus musculus with 4 samples.

Results

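Fatty acid desaturases and elongases set how unsaturated and how long the acyl chains of a cell are, and 10 of their genes were compared between dermal and inguinal mouse adipocytes. The members were taken by gene symbol from the table of normalized expression, and are Scd1, Scd2, Scd3, Fads1, Fads2, Fads3, Elovl1, Elovl5, Elovl6 and Elovl7. All 10 were present among the 18781 genes listed. The study sequenced total RNA from mature adipocytes of C57BL/6 mice (an inbred laboratory strain) taken on postnatal day 30. Of the 4 libraries, 2 came from dermal adipocytes, the fat cells of the skin, and 2 from adipocytes of inguinal fat, a subcutaneous depot of the groin, both freed by collagenase IV and dispase II and collected by flotation. No genotype or treatment separates the groups. Whether animals were pooled, and whether the replicates of a depot are different animals, the labels leave unsaid. The p-values below therefore rest on a spread between libraries that may be technical only.

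In an adipocyte, fatty acid synthase makes palmitate, elongases of the ELOVL family lengthen acyl-CoA chains in the endoplasmic reticulum, and desaturases insert double bonds with electrons passed on by cytochrome b5. Stearoyl-CoA desaturases (the Scd genes) make the monounsaturated chains that fill stored triglyceride, whereas Fads1 and Fads2 act with Elovl5 on dietary polyunsaturated fatty acids to make the long chains of membrane lipids. Most of these genes are known targets of the lipogenic transcription factor SREBP1, and insulin, feeding and dietary polyunsaturated fat are known to change their transcription.

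Values were deposited per gene under the name of an iGenomes gene set, whose exons may differ from those of GENCODE M21. The genes lie in the GRCm38 (mm10) assembly as follows, by the GENCODE M21 annotation. The 3 Scd members share a cluster on chromosome 19, with Scd3 at 44203269 to 44244016, Scd2 at 44293674 to 44306864 and Scd1 at 44394455 to 44407879, Scd1 on the minus strand. A further desaturase gene, Scd4, lies between Scd2 and Scd1. The 3 Fads genes form a second cluster on the same chromosome, with Fads3 at 10041569 to 10060110, Fads2 at 10062765 to 10101746 on the minus strand and Fads1 at 10182888 to 10196877. The elongase genes are dispersed, with Elovl6 on chromosome 3 (129532355 to 129638495), Elovl1 on chromosome 4 (118428093 to 118432953), Elovl5 on chromosome 9 (77917364 to 77984519) and Elovl7 on chromosome 13 (108214404 to 108285683).

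The Scd genes are close copies, which bears on how their reads can be assigned. Over the coding sequence Scd1 shared 91.5% of aligned bases with Scd3, 90.3% with Scd2 and 85.6% with Scd4. The longest identical run of the Scd1 and Scd3 transcripts was 185 bases, and that of the Scd1 and Scd2 transcripts 147 bases. The stretch of 90 coding bases in which Scd3 is most like Scd1 is given here because it shows transcripts that cannot be told apart by a read lying inside it. It comes from the GENCODE M21 transcripts, from coding base 463 in Scd1, 475 in Scd3, 472 in Scd2 and 457 in Scd4, and the capital marks a base that differs from Scd1.
Scd1: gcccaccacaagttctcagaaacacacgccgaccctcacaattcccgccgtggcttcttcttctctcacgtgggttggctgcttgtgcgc
Scd3: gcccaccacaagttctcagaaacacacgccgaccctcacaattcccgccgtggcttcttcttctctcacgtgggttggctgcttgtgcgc
Scd2: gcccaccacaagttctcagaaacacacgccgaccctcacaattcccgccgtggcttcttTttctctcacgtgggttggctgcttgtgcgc
Scd4: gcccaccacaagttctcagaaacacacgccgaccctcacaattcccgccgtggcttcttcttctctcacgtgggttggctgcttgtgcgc
In this window Scd1, Scd3 and Scd4 are identical and Scd2 differs at 1 base. Over whole transcripts 4.85% of the 50-base words of Scd3 and 2.68% of those of Scd2 also occur in Scd1, so most of each transcript is distinguishable at that length. The sources used here do not give how the authors treated reads that match several genes. The Fads genes shared 65.1% to 71.1% of aligned coding bases and the 4 elongase genes 59.8% to 65.2%, with no 50-base word in common except 5 of the 3638 words of Fads3 that also occur in Fads2.

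The libraries held between 10127125 and 12730013 reads assigned to genes, and 1 read was worth 0.0844 to 0.0969 in the deposited normalized values, gene counts scaled to library size (CPM). Values below are these normalized CPM, as mean ± SD with n = 2 per depot where averaged, and each log2 fold change is the dermal minus the inguinal mean of log2(CPM + 0.5). Of all genes 12797 reached 1 CPM in at least 2 libraries and were tested with limma, with p-values adjusted over all of them by the Benjamini-Hochberg method. In total 2094 genes passed at an adjusted p below 0.05, which is 16.4% of those tested, with 7.56% passing as higher in dermal libraries and 8.8% as higher in inguinal libraries. Mature adipocyte transcripts were abundant in both depots: the 10 adipocyte markers (Adipoq, Plin1, Pparg, Fabp4, Lep, Cfd, Retn, Lipe, Cidec and Pnpla2) summed to between 35977 and 41745 CPM in every library, most of it Cfd and Fabp4. Of these 10 markers 2 passed as higher in dermal libraries, Plin1 (1116 and 1318 against 646 and 599.6 CPM) and Lep (488 and 520 against 243 and 209 CPM). DESeq2 passed 5 of the 10, where 15.5% of all genes passed in either direction, and the directions of these 5 are not given here. Transcripts of other cells differed between the preparations. Of the 10 endothelial markers all passed as higher in inguinal libraries (summed level 441 and 489 CPM in dermal, 1605 and 2437 CPM in inguinal). Of 9 tested brown or beige adipocyte markers 8 passed as higher in inguinal libraries (73.8 and 71.0 CPM against 261 and 324 CPM). Of these 8, Ucp1, the uncoupling protein of thermogenic fat, entered the test through its inguinal values alone, at 0.091 and 0 CPM against 26.4 and 61.6 CPM. Of 10 macrophage markers 9 passed as higher in dermal libraries (1404 and 1309 CPM against 471 and 439 CPM), and so did 5 of 7 tested keratinocyte markers (88.6 and 56.0 CPM against 26.4 and 19.2 CPM). Of these 5 keratinocyte markers 4 (Krt5, Krt15, Dsp and Perp) reached 1 CPM in dermal libraries alone, so that the filter kept them only through the depot where they are high. Of 8 tested Schwann cell markers 1 passed as higher in dermal and 2 as higher in inguinal libraries (1 of them, Cdh19, tested through its inguinal values alone), and of 10 fibroblast markers 1 passed, as higher in dermal libraries. Their part in the differences below was not tested.

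Scd1 was far above all other members in both depots, and a single member, Elovl5, differed between depots beyond the test's threshold. This elongase of polyunsaturated chains was higher in inguinal libraries, at 372 ± 66.5 CPM against 206 ± 28.7 CPM. The desaturase genes of the same route, Fads1 and Fads2, had inguinal means 1.99 and 2.67 times the dermal ones but did not pass the test (limma adjusted p = 0.0587 and 0.0673). Fads3, a relative of both, had the opposite sign, with a dermal level of 245 ± 49.7 CPM and an inguinal level of 161 ± 22.8 CPM, and did not pass either (limma adjusted p = 0.0736). Of the 9 members tested, 1 passed, as higher in inguinal libraries, and 8 did not, beside the 16.4% of all genes that passed. None passed as higher in dermal libraries with limma or with edgeR (background 7.35%), against 1 with DESeq2 (6.43%), Fads3. At an unadjusted limma p under 0.05 there were 5 members, Fads3 as higher in dermal and 4 as higher in inguinal libraries, where 32.5% of all genes reached that level in either direction. The log2 fold change was negative in 6 of the 9 and ranged from -1.45 to 0.60, with a median of -0.61, beside a median of 0.02 over all genes tested. DESeq2 on the recovered reads passed 5 members, at a background of 15.5% of genes: Elovl5, Fads1, Fads2 and Scd1 as higher in inguinal libraries (9.08% of genes) and Fads3 in the other direction. With edgeR Elovl5 alone passed, where 16.1% of genes did in either direction and 8.75% as higher in inguinal libraries. Leaving out dermal replicate 2 brought the limma count to 0, and leaving out dermal replicate 1, inguinal replicate 1 or inguinal replicate 2 brought it to 2, 3 and 5. Over all genes 8.1% passed without dermal replicate 2, and 7.99%, 20.6% and 19.2% in the other 3 of these fits. In bulk RNA of this kind, fewer cells of a type and less RNA per cell cannot be told apart.

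**Figure D1:**
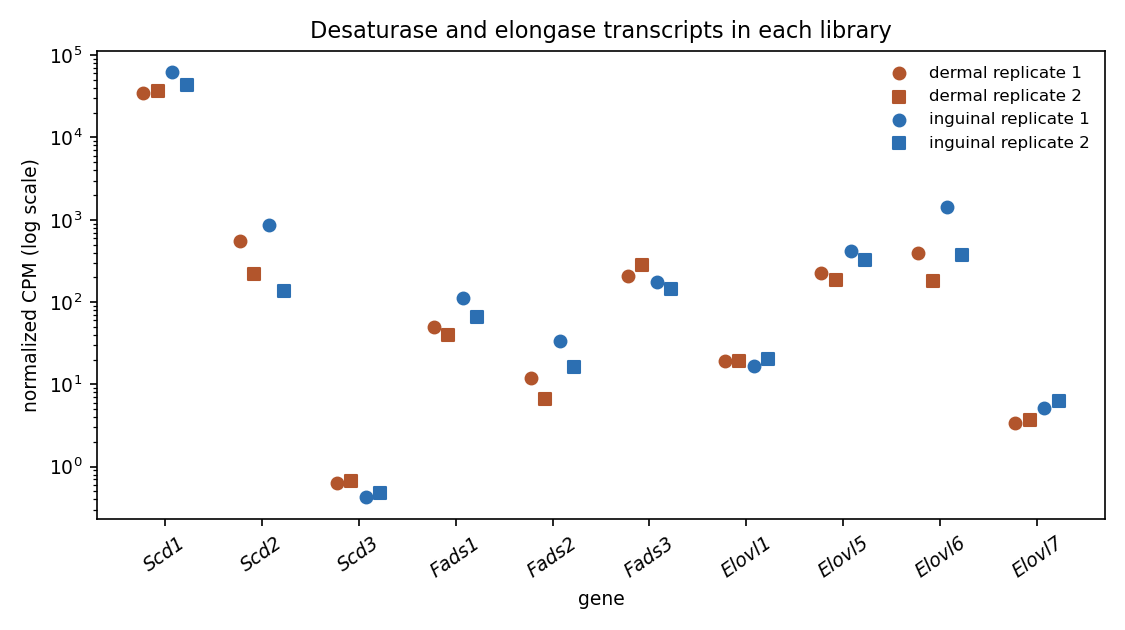
Normalized CPM (log axis) of the 10 genes in each of the 4 libraries. Brown points are dermal and blue points inguinal libraries, circles are replicate 1 and squares replicate 2. Scd1 lies between 34813 and 62455 CPM and Scd3 below 1 CPM in all 4 libraries.

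**Figure D2:**
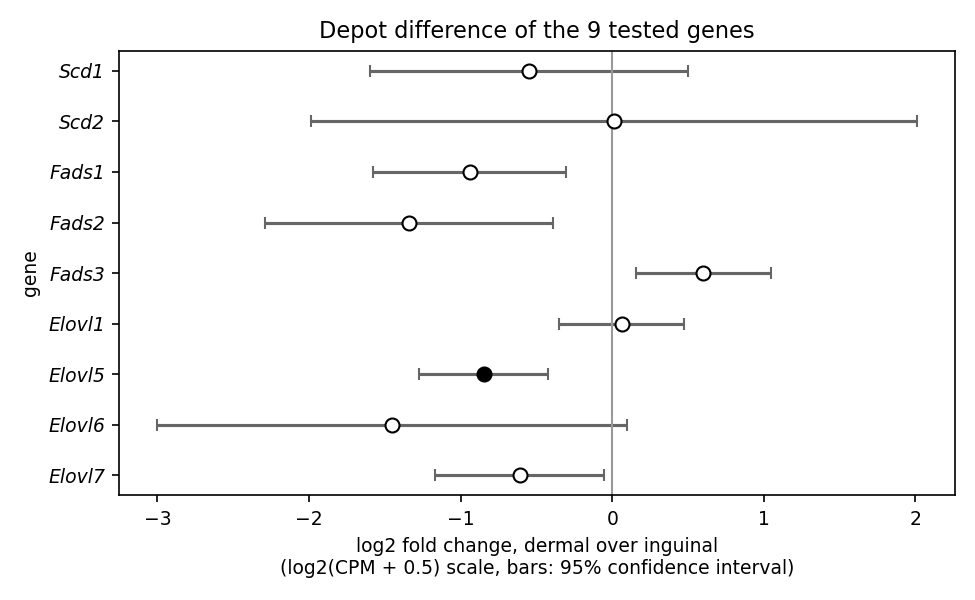
Difference in mean log2(CPM + 0.5), dermal minus inguinal, of the 9 tested genes with its 95% confidence interval from limma. The filled point, Elovl5, is the gene with an adjusted p below 0.05, and the intervals of Scd1, Scd2, Elovl1 and Elovl6 include 0.

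Values of the depots did not overlap for 6 of the 9 tested members, where 61.8% of all tested genes did not overlap. In 5 of these 6 (Scd1, Fads1, Fads2, Elovl5 and Elovl7) the dermal libraries were the lower ones, which held for 30.1% of all tested genes.

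Stearoyl-CoA desaturase 1, encoded by Scd1, makes oleate and palmitoleate from saturated chains and is the main isoform of adipose tissue and liver. Scd1 stood at 34813 and 36331 CPM in the dermal libraries and at 62455 and 43326 CPM in the inguinal libraries. Both inguinal libraries were above both dermal ones, but inguinal replicate 1 was 1.44 times inguinal replicate 2, a spread of the same order as the depot difference. The mean ratio was 1.49 and the log2 fold change was -0.55 (SE 0.44, 95% interval -1.60 to 0.50, limma adjusted p = 0.433), an interval that includes no change. A fit with no intensity trend gave the same estimate with an SE of 0.22 (limma adjusted p = 0.17). The width of the interval therefore rests on the trend as well as on the replicates. DESeq2 on reads passed Scd1 (adjusted p = 0.042). Scd1 had the highest normalized CPM of all genes in all 4 libraries. It took 3.54% (95% exact binomial interval 3.53 to 3.55) and 3.78% (3.77 to 3.79) of the reads of the dermal libraries, and 5.81% (5.80 to 5.82) and 4.40% (4.38 to 4.41) of the reads of the inguinal libraries. These intervals cover counting error only, and the difference between replicates is many times wider. The mean share was 3.66% ± 0.169 in dermal and 5.10% ± 0.999 in inguinal libraries (exact permutation test, two-sided, p = 0.333, the smallest that 2 against 2 libraries allow). Among the reads of the 10 members, Scd1 made up between 95.3% and 97.6% in every library, so the summed level of the family is in effect that of Scd1.

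Stearoyl-CoA desaturase 2, encoded by Scd2, is the isoform best known from brain and from the neonatal skin and liver. Dermal libraries held 546 and 218 CPM of it, and inguinal libraries 854 and 137 CPM. The depots overlapped completely, with the highest and the lowest value both in inguinal libraries, and replicate 1 exceeded replicate 2 by 2.50 times in dermal and 6.21 times in inguinal adipocytes. The log2 fold change was 0.01 (SE 0.83, 95% interval -1.99 to 2.01, limma adjusted p = 0.995). The estimate was -1.30 without inguinal replicate 2 and 1.33 without inguinal replicate 1. Without dermal replicate 1 it was -0.65 and without dermal replicate 2 it was 0.67, so its sign depended on which library was left out. Fitted to reads, edgeR and DESeq2 gave -0.38 and -0.39, neither past the threshold. Scd2 contributed 1.54% and 0.597% of the reads of the 3 Scd members in dermal libraries and 1.35% and 0.316% in inguinal libraries, and the rest was almost wholly Scd1. A microRNA gene, Mir5114, lies inside Scd2 on the same strand and was listed at 9.19 and 3.51 CPM in the dermal pair and 12.7 and 1.16 CPM in the inguinal pair. Its order over the 4 libraries was that of Scd2, and reads of the microRNA gene and of its host cannot be told apart there.

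Scd3, an isoform known from the skin and its glands that prefers palmitoyl-CoA, was barely detected, at 0.637 and 0.664 CPM in the dermal pair and 0.422 and 0.485 CPM in the inguinal pair. These levels rest on 14 reads in the 2 dermal libraries (exact Poisson 95% interval 7.65 to 23.5) and 10 reads in the 2 inguinal libraries (4.80 to 18.4). The gene was below the filter and was not tested, and no difference was detectable at this depth. With runs of 185 bases shared with Scd1, the assignment of so few reads is uncertain. Among the 10 sebocyte markers, Awat1, Awat2 and Dgat2l6, which make wax esters and related skin lipids, reached at most 0.455 CPM in any library. Far2 was at 0.364 and 0.379 against 0.084 and 0.097 CPM, which is 4 reads per dermal and 1 per inguinal library. Mc5r was at 3.64 and 5.22 against 2.96 and 2.13 CPM, and Krt79 at 5.55 and 5.60 against 3.88 and 4.75 CPM. Far2, Mc5r and Krt79 were each higher in both dermal libraries. Prdm1 reached 9.60 CPM and Elovl3 3.88 CPM, both in inguinal libraries, and the list summed to between 1201 and 1490 CPM, most of it Mgst1 and the adipocyte marker Pparg. None of the 5 sebocyte markers tested passed with limma, edgeR or DESeq2. At an unadjusted limma p under 0.05 there was 1, Prdm1, higher in inguinal libraries (log2 fold change -1.02).

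Fads1, which encodes the front-end desaturase that forms arachidonic and eicosapentaenoic acid, stood at 49.6 and 39.3 CPM in the dermal pair and at 111 and 65.1 CPM in the inguinal pair. Fads2, the desaturase of the first step on linoleic and alpha-linolenic acid, stood at 12.02 and 6.64 CPM in the dermal pair and at 33.4 and 16.4 CPM in the inguinal pair. For both genes the 2 inguinal libraries were above the 2 dermal ones, and in each depot replicate 1 was the higher library. The log2 fold change of Fads1 was -0.94 (SE 0.26, 95% interval -1.58 to -0.31) and that of Fads2 -1.34 (SE 0.40, 95% interval -2.29 to -0.39), with unadjusted intervals that lie below 0. Neither passed once adjusted over all genes with limma, and neither did with edgeR (adjusted p = 0.0541 and 0.0652), whereas both passed with DESeq2 (adjusted p = 0.00359 and 0.00353). Both passed without inguinal replicate 2 as well (limma adjusted p = 0.000772 and 0.00248), and Fads2 also without dermal replicate 1 (0.0332). Without inguinal replicate 1 the estimates were -0.56 and -0.84.

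Fads3, the third gene of the cluster, codes for a desaturase that acts on sphingoid bases. Its dermal values were 210.2 and 281 CPM and its inguinal values 177 and 145 CPM. Both dermal libraries were above both inguinal ones, the reverse of its neighbours Fads1 and Fads2, with a log2 fold change of 0.60 (SE 0.18, 95% interval 0.16 to 1.04). It passed with DESeq2 (adjusted p = 0.0445), with the further scaling factor removed (limma adjusted p = 0.0493), under quantile normalization (0.0403) and without inguinal replicate 1 (0.0196), and in no other alternative that keeps the replicates unblocked. Whether Fads3 differs from Fads1 and Fads2 in its depot difference was not tested.

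Elovl5 was the member that passed. Dermal libraries gave 226 and 185 CPM and inguinal libraries 419 and 325 CPM, from 1953 to 4958 reads, so counting error is small beside the spread between libraries. Every inguinal library was above every dermal one. The log2 fold change was -0.85 (SE 0.18, 95% interval -1.27 to -0.42, limma adjusted p = 0.0241), and edgeR and DESeq2 on reads gave -0.85 and -0.87 (adjusted p = 0.0267 and 0.00057). Leaving out dermal replicate 2 ended the call (-0.71, adjusted p = 0.135), and so did a fit with no intensity trend (adjusted p = 0.0576). In these same inguinal libraries endothelial and brown or beige adipocyte markers were also higher, with the summed levels given above, and their part in the Elovl5 difference was not tested.

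Of the members, 7 had an entry among the RefSeq promoters of GRCm38.p6, without Scd1, Scd2 and Fads1, and motifs were searched on both strands in the 250 bases before each start. Elovl5 alone among them held the E-box CACGTG, a motif that SREBP, ChREBP and other helix-loop-helix factors can bind, and it also held 2 copies of the CCAAT box (CCAAT, written ATTGG on the other strand), the NF-Y motif that often accompanies SREBP sites. Fads3 held 2 CCAAT boxes as well, and Elovl1 held 1. Of all 32851 promoter windows of this length 6.02% held CACGTG and 33.8% held CCAAT. The Elovl5 window, chr9:77917115-77917364 on the plus strand, is printed because this was the gene that passed, with these motifs in capitals.
Elovl5: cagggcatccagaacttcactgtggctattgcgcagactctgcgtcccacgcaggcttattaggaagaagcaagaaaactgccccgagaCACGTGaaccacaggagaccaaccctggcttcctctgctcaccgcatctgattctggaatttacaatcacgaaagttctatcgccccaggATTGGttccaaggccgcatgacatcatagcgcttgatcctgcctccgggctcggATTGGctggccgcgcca
The E-box began 161 bases before the start and the CCAAT boxes 71 and 17 bases before it. The sterol response element TCACNCCAC, present in 1.05% of windows, was found in none of the 7 genes. The GC box, a short motif of G and C bases present in 32.7% of windows, was searched as well. Elovl5, Scd3 and Elovl6 held none. Fads2 held 1, Fads3 held 2, Elovl7 held 3, and the separate windows of Elovl1 held 5 and 2. The DR4 motif of LXR receptors, present in 0.0152% of windows, was found in none of the 7 genes. A match in letters does not show a site in use, and a missing one says only that these letters are not in this window.

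Elovl6, which lengthens palmitate and palmitoleate to chains of stearate length and so stands between fatty acid synthase and Scd1, had the largest mean ratio of the 9 tested members. The dermal libraries held 393 and 181 CPM and the inguinal ones 1448 and 369 CPM. Dermal replicate 1 was just above inguinal replicate 2, so the depots overlapped, and inguinal replicate 1 was 3.92 times inguinal replicate 2. The inguinal mean was 3.16 times the dermal mean and the log2 fold change was -1.45 (SE 0.64, 95% interval -3.00 to 0.10, limma adjusted p = 0.175). The log2 fold change was -2.44 without inguinal replicate 2 and -0.47 without inguinal replicate 1. Without dermal replicate 1 it was -2.01 and without dermal replicate 2 it was -0.90, so the size of the difference depends on every library.

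Elovl1 and Elovl7 make very long saturated chains, of which those of Elovl1 serve sphingolipids. Elovl1 stood at 19.5 and 19.2 CPM in the dermal pair and 16.7 and 20.5 CPM in the inguinal pair, which overlapped, with a log2 fold change of 0.06 and a 95% interval of -0.35 to 0.47 (limma adjusted p = 0.839). The end of Elovl1 overlaps that of Cdc20 on the opposite strand, which had at most 3.13 CPM. The library kit keeps strand, but whether counting used it is not given in these sources. Elovl7 was scarce, with 3.37 and 3.70 CPM in the dermal pair and 5.15 and 6.20 CPM in the inguinal pair, from 37 to 64 reads per library. Its inguinal libraries were the higher ones, with a log2 fold change of -0.61 (SE 0.23, 95% interval -1.17 to -0.05, limma adjusted p = 0.126).

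Levels of different genes were compared per kilobase of merged exons. These lengths are those of GENCODE M21 and may differ from the exons that the submitters counted. In dermal libraries the order of the mean normalized CPM per kilobase was Scd1 (7272 ± 219), Scd2 (69.9 ± 42.4), Fads3 (64.7 ± 13.1), Elovl5 (58.4 ± 8.16), Elovl6 (44.7 ± 23.2), Fads1 (9.24 ± 1.52), Elovl1 (7.09 ± 0.0820), Fads2 (2.83 ± 1.15), Elovl7 (0.881 ± 0.0585) and Scd3 (0.183 ± 0.00535). Neighbours from Scd2 to Elovl6 overlapped in their library values, and the others did not. In inguinal libraries the order was Scd1 (10812 ± 2765), Elovl6 (141 ± 119), Elovl5 (106 ± 18.9), Scd2 (90.7 ± 92.7), Fads3 (42.4 ± 6.00), Fads1 (18.3 ± 6.78), Fads2 (7.56 ± 3.66), Elovl1 (6.82 ± 0.969), Elovl7 (1.41 ± 0.186) and Scd3 (0.128 ± 0.0124). There the neighbours from Elovl6 to Fads3 overlapped, as did Fads2 and Elovl1. Scd1 therefore stood apart at the top, Scd3 and Elovl7 at the bottom, and the order of the genes between them was only partly resolved. With the longest transcript as the length, 15 of the 20 places stayed the same.

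**Figure D3:**
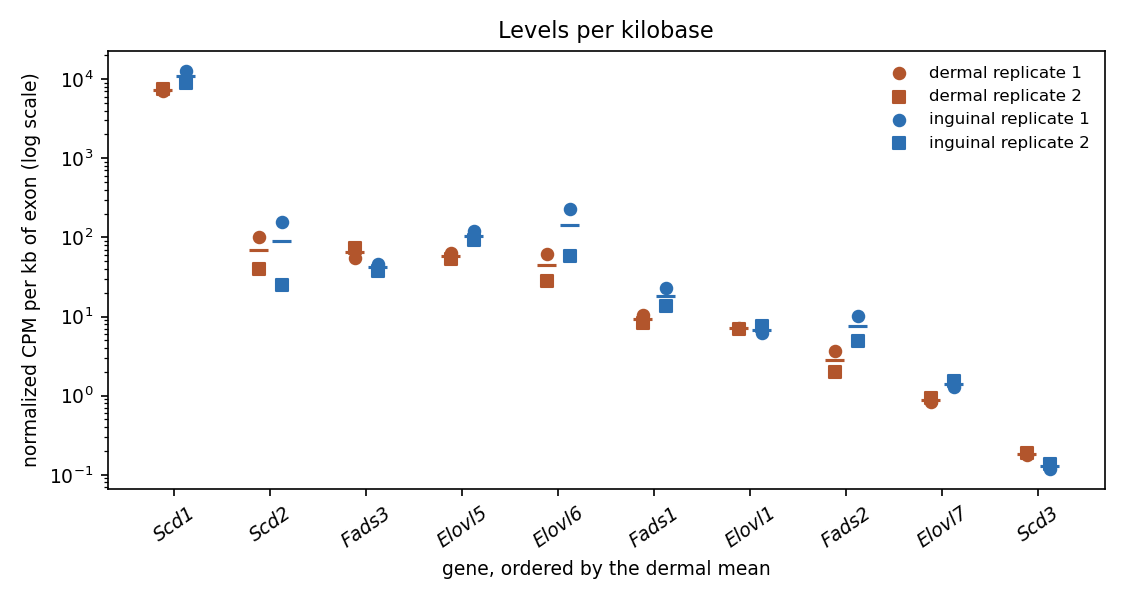
Normalized CPM per kilobase of merged exons (log axis) of the 10 genes, ordered by the dermal mean. Points are libraries (circles replicate 1, squares replicate 2), and short lines are the mean of each depot. Scd1 lies at 7116 per kilobase or more in every library, and the highest value of any other gene is 225.

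Several members differed between the replicates of a depot as much as between depots. Fasn, which encodes fatty acid synthase, had 17787 and 8561 CPM in the dermal pair and 19109 and 8180 CPM in the inguinal pair, with replicate 1 the higher library each time (log2 fold change -0.02, SE 0.53, 95% interval -1.29 to 1.25, limma adjusted p = 0.985). Of the members, 5 were higher in replicate 1 of both depots (Scd2, Fads1, Fads2, Elovl5 and Elovl6), as were 30.3% of all tested genes. The reads of each member were therefore also expressed per 1000 reads of Fasn in the same library, a ratio chosen after these values had been seen and given without a test. Fads2 had 0.676 and 0.776 reads per 1000 Fasn reads in dermal and 1.75 and 2.003 in inguinal libraries, so that its replicates came closer together than in CPM and the depots stood 2.59 times apart. Elovl6 had 22.1 and 21.2 in dermal and 75.8 and 45.2 in inguinal libraries, which no longer overlapped. Fads1 (2.79 and 4.59 against 5.82 and 7.96) and Elovl5 (12.7 and 21.6 against 21.9 and 39.7) did not overlap either, although for Elovl5 the nearest values almost met. The share of all genes that do not overlap on this scale is not given here, and in CPM it was 61.8% of tested genes. Scd1 overlapped between depots on this scale (1957 and 4244 against 3268 and 5296), and so did Scd2 (30.7 and 25.5 against 44.7 and 16.8). Fads3 (11.8 and 32.8 against 9.25 and 17.7) and Elovl7 (0.189 and 0.432 against 0.270 and 0.759), whose depots did not overlap in CPM, overlapped per Fasn read. Elovl1 and Scd3 overlapped on this scale too. Replicates of Scd2 and Elovl6 also came closer together per Fasn read. Those of Scd1, Scd3, Fads3, Elovl1, Elovl5 and Elovl7 moved further apart in both depots, and those of Fads1 did so in dermal libraries only. For Elovl5 the ratio of replicate 1 to replicate 2 went from 1.22 to 0.587 in dermal and from 1.29 to 0.552 in inguinal libraries.

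**Figure D4:**
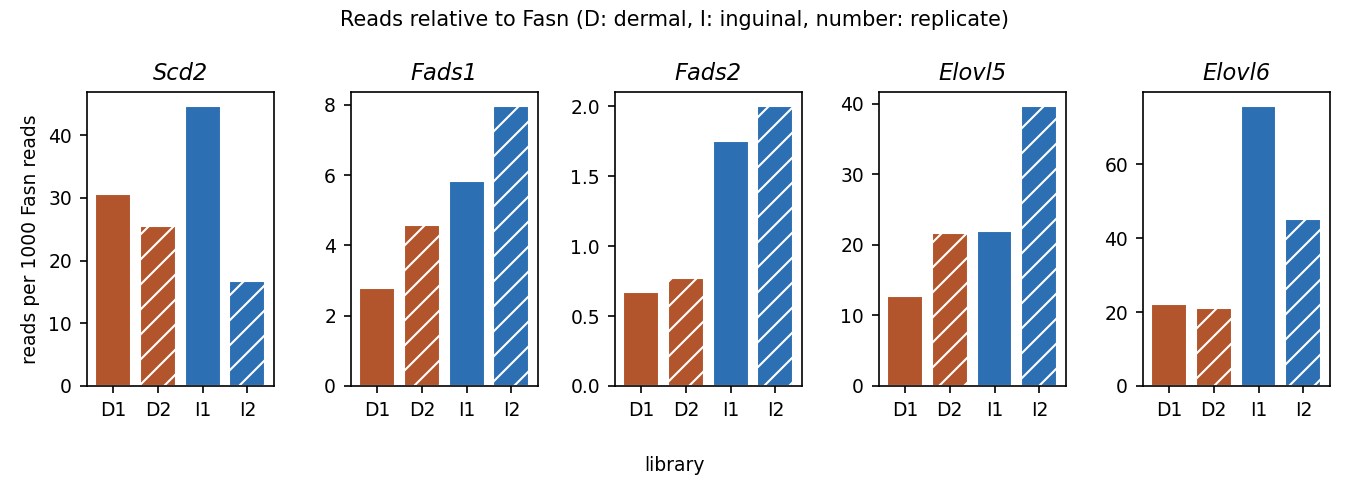
Reads of 5 genes per 1000 Fasn reads in dermal (brown, D) and inguinal (blue, I) libraries, each bar a library, replicate 2 hatched, with a separate axis from 0 for each gene. Fads2 is at 0.676 and 0.776 in dermal and 1.75 and 2.003 in inguinal libraries, whereas Scd2 overlaps between depots.

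The rest of the pathway was followed with 8 lists of 60 genes, of which 59 were in the table and 52 were tested. Of these 52 genes 2 passed as higher in dermal, 5 as higher in inguinal libraries and 45 did not pass, where 16.4% of all genes passed, and their median log2 fold change was -0.03. Enzymes of the other steps of the elongation cycle held 1 gene higher in dermal libraries of 6 tested, Hacd4 (listed as Ptplad2), a dehydratase of the cycle, at 12.2 and 13.0 CPM in the dermal pair and 6.42 and 7.08 CPM in the inguinal pair (log2 fold change 0.85, limma adjusted p = 0.028). That call was lost with DESeq2 (adjusted p = 0.0584), without a filter (0.055) and without either dermal library. None of 5 tested genes of the cytochrome b5 chain passed with limma, edgeR or DESeq2, and none had an unadjusted p under 0.05. The most abundant were Cyb5b, at 494 and 336 against 839 and 367 CPM, and Cyb5a (listed as Cyb5), at 429 and 405 against 452 and 336 CPM.

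All 7 genes that supply saturated acyl-CoA had negative log2 fold changes, from -1.16 to -0.02 with a median of -0.72, yet none passed with limma or edgeR. With DESeq2 1 passed, where 15.5% of all genes did, and 1 had an unadjusted limma p under 0.05, where 32.5% did. All 7 were also higher in replicate 1 of both depots, as were 30.3% of all tested genes, and all but Acacb overlapped between depots. Acaca, which encodes the acetyl-CoA carboxylase that makes malonyl-CoA for synthase and elongases alike, stood at 4508 and 2133 CPM in the dermal pair and 8024 and 3257 CPM in the inguinal pair (limma adjusted p = 0.377). Among 4 tested acyl-CoA synthetases, which activate fatty acids for desaturation and elongation, 3 passed as higher in inguinal libraries, where 8.8% of all genes did. Acsl3 stood at 16.0 and 18.0 CPM in the dermal pair and 47.5 and 55.1 CPM in the inguinal pair (log2 fold change -1.56, SE 0.16, limma adjusted p = 0.003). Acsl4, which prefers arachidonate, measured 39.2 and 35.7 against 79.5 and 73.0 CPM (-1.02, SE 0.13, adjusted p = 0.006). Acsl5 was at 63.7 and 57.5 against 86.9 and 84.1 CPM (-0.49, adjusted p = 0.047), a call lost in 9 of the alternatives tried, removal of the further scaling factor and DESeq2 among them, whereas those of Acsl3 and Acsl4 were lost in none. Acsl1, by far the most abundant at 4066 to 5941 CPM, did not pass (-0.35, adjusted p = 0.325).

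Regulators of these genes gave 1 limma call among 15 tested, where 16.4% of all genes passed. With edgeR none passed, and with DESeq2 1 did, a gene other than the one limma passed. At an unadjusted limma p under 0.05 there were 6, where 32.5% of all genes reached that level. Rxra, the partner of LXR and PPAR receptors, was higher in dermal libraries at 229.7 and 221 CPM against 159 and 168 CPM (log2 fold change 0.46, limma adjusted p = 0.047), a call lost in 7 alternatives: with edgeR (adjusted p = 0.0513), with DESeq2 (0.0774), with no filter (0.0644), with no intensity trend (0.104), without inguinal replicate 1 (0.0756) and without either dermal library. Srebf1, which encodes SREBP1, had the opposite sign to its known targets Fads1, Fads2 and Elovl6, at 594 and 780 CPM in the dermal pair and 432 and 482 CPM in the inguinal pair (log2 fold change 0.58, SE 0.17), and did not pass (limma adjusted p = 0.072). Of 7 tested acyltransferases that place unsaturated chains in phospholipids, Mboat2 passed as higher in inguinal libraries (0.273 and 0.474 against 1.86 and 4.85 CPM, limma adjusted p = 0.029), a low gene that entered the test through its inguinal values and lost the call without dermal replicate 1 or inguinal replicate 2. The family relatives were scarce apart from the ceramide desaturase gene Degs1, at 182 and 177 against 153 and 135 CPM, and neither Degs1 nor Elovl4 (2.28 and 1.04 against 0.760 and 0.485 CPM) passed. Elovl3, an elongase known from brown fat and sebaceous glands, had 0.819 and 0.474 CPM in the dermal pair and 3.88 and 0.776 CPM in the inguinal pair, and was below the filter.

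**Figure D5:**
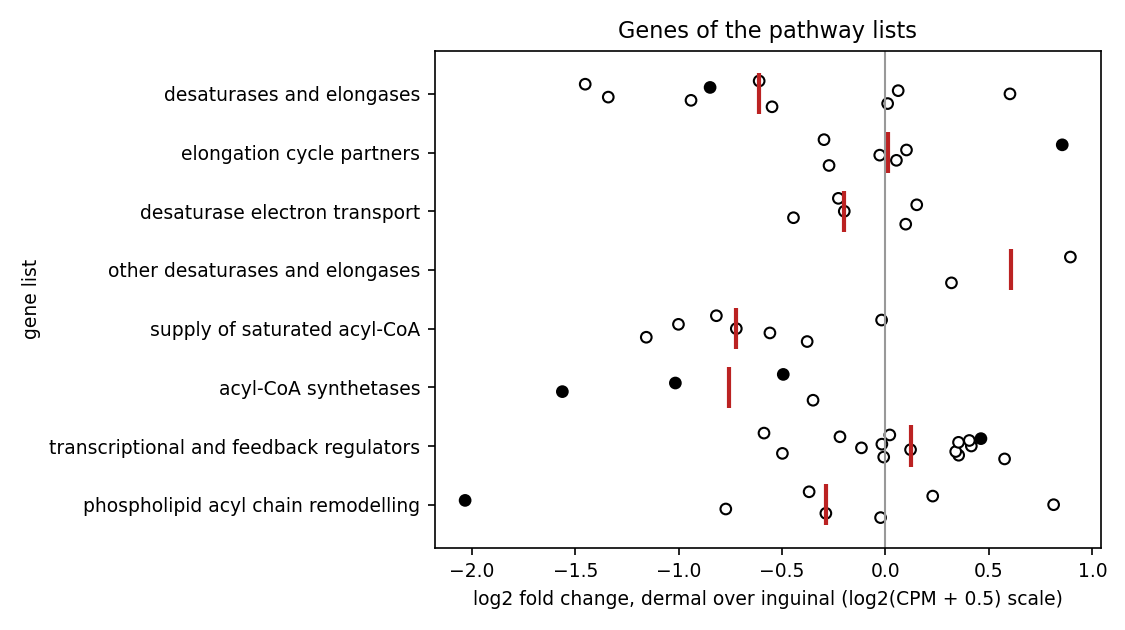
Log2 fold change, dermal over inguinal, of the tested desaturase and elongase genes (top row) and of the genes of 7 of the pathway lists, each point a gene. Filled points have an adjusted p below 0.05 and the red line is the median of the list. The median is -0.61 for the desaturases and elongases and -0.72 for genes that supply saturated acyl-CoA.

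Over the 4 libraries, the pathway genes whose log2 profile lay closest to that of Scd1 were Insig1, Agpat3 and Acsl1, with root mean square differences of 0.0743, 0.119 and 0.129 among 52 genes compared. Among those closest to Elovl5 were Acsl4 (0.132) and Fads1 (0.15). Insig1, which restrains SREBP processing and is itself its target, stood at 332 and 396 CPM in the dermal pair and 606 and 433 CPM in the inguinal pair. Inguinal replicate 1 was its highest library as for Scd1, which follows from its choice by likeness and is no separate result. With 4 libraries such profiles separate few genes from each other.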

How the data were processed

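Total RNA of 2 dermal and 2 inguinal adipocyte libraries was sequenced with a stranded Illumina kit, per the labels' protocols, with groups taken from the sample titles. Tools named in the submitters' processing notes, without roles or settings, are edgeR, featureCounts from Subread 1.4.6, Picard 1.127 and TopHat2 2.0.12, with the mm10 build. The deposited signal values are CPM divided by a further factor per library. In each column 100% of values were whole multiples of the value of 1 read within 0.001, and the factors implied (1.02, 1.04, 0.930 and 1.01) were those of the trimmed mean of M values. The main test was limma 3.58.1 (R 4.3.3), two-sided and with a trend on intensity, applied to log2(CPM + 0.5) of genes with at least 1 CPM in at least 2 libraries. For low genes that scale gives too small a fold change. The recovered reads were tested with edgeR 4.0.16 and DESeq2 1.42.0 as alternatives, which passed 2060 and 1985 genes. Tested on simulated counts with 12744 genes, the limma test found 51% of genes set to a log2 change of 1 and 98% of those set to 2, and 5 of its 154 calls were false. In that simulation all genes had the same dispersion (0.0257) and replicates shared no effect. Only 100 genes were changed at each size, with the lowest genes left out of the choice. These rates therefore need not hold for the 4 libraries.

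The members, gene lists, tests and the rule for named genes were chosen with earlier results of these data known. That rule named all members, every list gene that passed, the 2 most abundant genes of a list with none, Fasn, Srebf1 and Elovl3, and the 3 pathway genes most like Scd1 and Elovl5. The values of Acsl1, Insig1, Mir5114, Cdc20 and single marker genes were added after they were seen. Alternatives were another pseudocount (0.1 and 1), no filter or one at 5 CPM, no trend, 3 other scalings, a replicate block and each library left out. Lists were described by counts and medians, without a set test. Of the list genes, Degs2 and Krt1 are not analysed here. The values of 1 further list gene that the rule names are not reported here, though counts over the lists include it. Lengths and positions came from GENCODE M21 and promoters from RefSeq.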

Additional observations from a re-analysis of the deposited data

How the results depend on the processing

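Of 146 values of the 10 members under alternatives, 120 were counted as unchanged. For a tested value this means the same direction and the same side of the threshold. The ratio to Fasn reads has no test, and there it means a shift smaller than the SD between replicates. Elovl5 lost its call without the intensity trend (-0.85, adjusted p = 0.0576) and without dermal replicate 2, and its log2 fold change ranged from -1.03 to -0.67 with each library left out. DESeq2 passed Scd1 (-0.58, adjusted p = 0.042), Fads1 (-1), Fads2 (-1.43) and Fads3 (0.60) in addition, and Fads3 also passed with plain CPM scaling (0.69) and quantile normalization (0.78). Quantile normalization set Scd1 to 0, because it is the most abundant gene in every library and takes the same value in each by construction. Scd2 turned negative with edgeR (-0.38) and DESeq2 (-0.39), and ranged from -1.30 to 1.33 with each library left out, at -0.65 without dermal replicate 1. Elovl1 was -0.0803 without inguinal replicate 1. The cause of these shifts was not tested. With each library left out in turn, the ranges were -0.81 to -0.28 for Scd1, -1.32 to -0.56 for Fads1, -1.84 to -0.84 for Fads2, 0.39 to 0.81 for Fads3, -0.08 to 0.20 for Elovl1, -2.44 to -0.47 for Elovl6 and -0.73 to -0.49 for Elovl7. In such fits the lone library of a depot is assumed to vary like the pair of the other. Scd3 was below the filter, and its difference was 0.27 on the log2(CPM + 0.5) scale and 0.54 relative to Fasn reads, an alternative chosen after seeing the data. For Scd3 only the fit without a filter could give a test (adjusted p = 0.513).

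The number of members that passed was 1, against 0 without the trend (13.2% of all genes passed), 2 with plain CPM scaling (14.7%), 2 under quantile normalization (16.5%), 5 with DESeq2 (15.5%) and 0 to 5 with each library left out. Among all genes the number passing was 2094, and 1023 to 2636 (7.99% to 20.6%) with each library left out. Of the pathway list genes 7 passed, 3 without a filter and 3 to 20 with each library left out. Replicate numbers are shared between depots in the titles, and the deviations of replicate 1 from the depot means correlated at 0.464 across genes, but nothing in the labels says that a number marks a shared animal or day and there are only 2 numbers. With the replicate block 4726 of all genes passed (36.9%), 6 members and 24 pathway list genes. The members were Elovl5 (-0.85), Fads1 (-0.94), Fads2 (-1.34), Elovl6 (-1.45), Elovl7 (-0.61) and Fads3 (0.60). Depth limits Scd3, Scd4 and Elovl3, for which 3 reads correspond to 0.253 to 0.291 CPM.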
